A study of Homo sapiens with 4 samples.

Results

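Transcript levels of 6 genes of the endoplasmic reticulum (ER) were followed in LNCaP cells that overexpressed CRYM: the chaperones HSPA5, HSP90B1 and CALR, the co-chaperone SDF2L1, the degradation factor HERPUD1 and the transcription factor XBP1. The established line LNCaP, from a lymph node metastasis of a human prostate cancer, was at passage 22 in both groups. In one group, 2 libraries came from cells transfected with a plasmid carrying the CRYM open reading frame, and in the other, 2 libraries came from cells given the matching plasmid without an insert. All cells received 2500 ng of plasmid with 12 µL of Lipofectamine 2000 in RPMI medium with 10% fetal calf serum after culture with penicillin and streptomycin, GFP was monitored, and RNA was taken 48 h later. The product of CRYM, mu-crystallin, binds thyroid hormone in the cytosol. The transfection was transient, and the share of cells that took up plasmid is not given in the labels. The 6 genes were chosen by name or, where a file gives no name, by position, and all 6 were found and tested among 10091 tested loci. A file names SDF2L1 in 4 of the 4 libraries, HSPA5 in 3 and XBP1 in 2, and the rest were matched to a given hg19 span of the gene, which left out no gene.

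The ER folds secreted and membrane proteins. HSPA5 (also BiP) is its Hsp70-type chaperone and holds the sensors of misfolded protein inactive, HSP90B1 (also GRP94) is its Hsp90-type chaperone, and CALR (calreticulin) is a calcium-binding lectin that folds glycoproteins. SDF2L1 works with HSPA5 and its J-domain partners. HERPUD1 is an ER membrane protein that helps send misfolded proteins to degradation. When unfolded protein builds up, the sensor IRE1 splices XBP1 mRNA and the sensor ATF6 is cut to release a transcription factor, and both pathways induce chaperone and degradation genes. ATF6 is known to bind the ER stress element (ERSE) together with the CCAAT-binding factor NF-Y, and a shorter form, ERSE-II, is known from HERPUD1. Prostate epithelium is a secretory tissue, and its luminal cells carry a large ER.

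The ERSE was searched as CCAAT, 9 bases of any kind and CCACG, and the ERSE-II as ATTGG, 1 base of any kind and CCACG. All 6 genes held an ERSE or an ERSE-II in the 250 bases before an annotated start, by a search of both strands of the RefSeq promoter table (GRCh38.p14), in which all 6 matched by symbol. HSPA5, CALR and XBP1 held 1 ERSE each and HSP90B1 held 2, while HERPUD1 and SDF2L1 held 1 ERSE-II each and no exact ERSE. An ERSE occurred in 0.0740% and an ERSE-II in 0.0513% of the 35116 windows of the same length. These 4 genes were among 25 with an ERSE, and HERPUD1 and SDF2L1 among 18 with an ERSE-II. The remaining 21 and 16 genes gave no tested locus under those names. A match describes letters and not a bound site, both elements contain CCAAT or its reverse complement, and the ERSE-II search was added after the expression values were seen. Both elements were searched because they are known from genes of this response, ERSE-II from HERPUD1 itself. Finding them in the 6 genes is therefore no test of enrichment. Only exact matches were counted. In HERPUD1 the CCAAT at 83 to 79 bases before the start is followed after 9 bases by CCACA, 1 base off an ERSE. In SDF2L1 the CCAAT at 182 to 178 bases is followed after 9 bases by CCTCG, also 1 base off. The ATTGG of SDF2L1 at 28 to 24 bases opens ATTGGGCCGCG, 1 base off an ERSE-II. Near matches were not counted over the 6 genes or the other windows. The ERSE windows are shown because they place 4 of the genes under one element. Each is written 5′ to 3′ on the strand that reads the element, with the element in capitals and up to 20 bases on each side.
HSPA5, chr9:125241371-125241429, minus strand: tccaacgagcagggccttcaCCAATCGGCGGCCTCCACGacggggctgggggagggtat
HSP90B1 farther element, chr12:103930196-103930254, plus strand: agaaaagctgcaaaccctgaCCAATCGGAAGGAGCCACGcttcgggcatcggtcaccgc
HSP90B1 nearer element, chr12:103930301-103930359, minus strand: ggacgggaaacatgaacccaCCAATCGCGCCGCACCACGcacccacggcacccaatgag
CALR, chr19:12938364-12938422, minus strand: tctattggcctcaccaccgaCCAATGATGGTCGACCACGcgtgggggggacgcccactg
XBP1, chr22:28800583-28800641, minus strand: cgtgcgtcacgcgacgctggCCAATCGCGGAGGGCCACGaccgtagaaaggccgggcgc

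HERPUD1 and SDF2L1, whose FPKM fell most among the 6, are shown with the whole 250 bases before the start. A link between the ERSE-II and the fall was not tested, and XBP1, also called lower, holds an ERSE. Capitals mark the ERSE-II, which in SDF2L1 lies on the opposite strand and so appears as its reverse complement.
HERPUD1, chr16:56931892-56932141, plus strand: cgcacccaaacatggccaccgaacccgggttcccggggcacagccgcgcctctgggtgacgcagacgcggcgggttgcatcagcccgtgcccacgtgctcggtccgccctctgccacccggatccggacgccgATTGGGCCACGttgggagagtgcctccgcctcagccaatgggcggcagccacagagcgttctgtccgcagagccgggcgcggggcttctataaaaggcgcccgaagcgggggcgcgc
SDF2L1, chr22:21642052-21642301, plus strand: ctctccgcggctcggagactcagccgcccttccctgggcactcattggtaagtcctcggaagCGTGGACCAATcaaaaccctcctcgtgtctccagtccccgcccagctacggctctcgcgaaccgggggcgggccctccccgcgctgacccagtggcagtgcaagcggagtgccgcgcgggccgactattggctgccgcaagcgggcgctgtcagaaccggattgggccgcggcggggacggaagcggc

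The elements differ in place as well as in kind. The ERSE lay 66 to 48 bases before the start in HSPA5, 52 to 34 in XBP1 and 225 to 207 in CALR, and the pair in HSP90B1 lay 194 to 176 and 89 to 71 bases before it. The ERSE-II lay 117 to 107 bases before the start in HERPUD1 and 188 to 178 in SDF2L1. A further XBP1 start in the table held neither element.

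**Figure D1:**
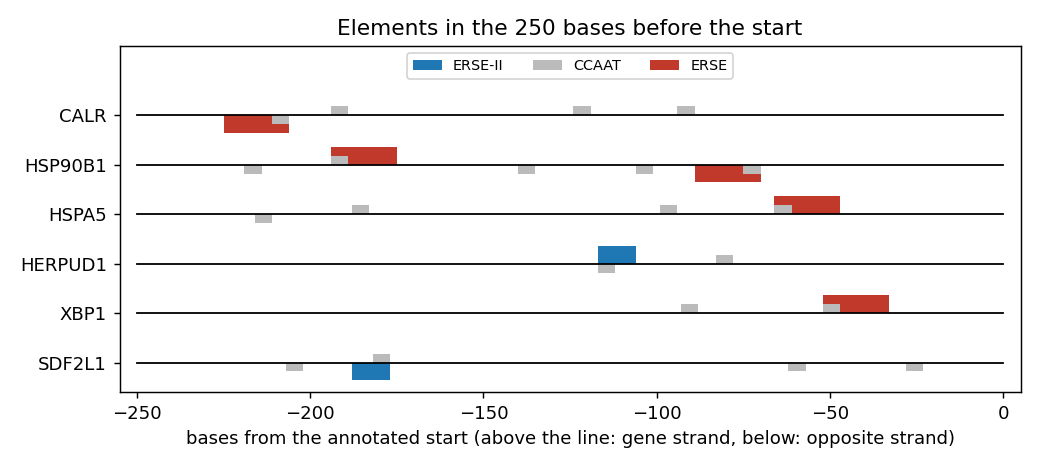
Elements in the 250 bases before the annotated start of each gene, drawn by distance from the start in bases. Bars above a line are on the gene's strand and bars below it on the opposite strand; ERSE (red) marks 4 genes, ERSE-II (blue) marks HERPUD1 and SDF2L1, and grey bars are single CCAAT matches.

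CRYM checks the labels. Its locus, unnamed in the files and taken from its place between ANKS4B and CTD-2547E10.3 (hg19 chromosome 16, 21250195 to 21314404), had 1.17 and 0.977 FPKM with empty vector and 65.3 and 72.5 with CRYM vector. The luminal prostate markers SPDEF and HOXB13 were present, at 46.8 to 86.9 and 110.3 to 128.4 FPKM, and fell (limma adjusted p = 0.00517 and 0.0275). They are the 2 of 11 luminal markers that the joined files name. Among the markers of other cell types that the joined files name, CPA1 was listed at 0 in all 4 libraries, INSM1 was at 0 to 0.0138, CLDN5 at 0.136 to 0.275 and HLA-DRA at 1.56 to 2.40 FPKM. Sequencing depth relative to the first empty vector library was 1.15 in the second, 0.842 and 1.07 in the first and second CRYM libraries, and absolute depth is unknown. Loci under 300 bp made up 92.8% to 95.5% of the summed FPKM of a library. The labels speak of biological replicates, but none says that they come from cultures grown apart, and p-values measure only the spread between these samples, which may be technical.

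SDF2L1, HERPUD1 and XBP1 fell in cells given CRYM, by 1.56-fold, 1.39-fold and 1.17-fold. None of the 6 was called higher. HSPA5 and HSP90B1 had nearly the same FPKM in both groups, and CALR had a higher mean with CRYM without passing the test. So 3 of 6 genes were called lower, where limma called 33.3% of all tested loci in either direction and 17.7% lower. Among the 800 named protein-coding loci 40.8% were called in either direction and 23.4% lower. A separate fit took the 6371 loci that reached FPKM 5 in every library, all 6 genes included. There 43.2% were called, and 1668 of the 6371 were called lower. With so many calls, a call of a single gene is common in these libraries, and with any 1 library left out limma called 0 loci (smallest adjusted p = 0.0550 to 0.0713). The groups did not overlap for 4 of the 6 genes, against 72.2% of tested loci. The median log2 difference, CRYM minus empty vector on log2(FPKM + 1), was -0.11 over the 6 genes, -0.02 over named protein-coding loci and 0.01 over all tested loci. In such bulk RNA, less of a transcript per cell and fewer cells that make it cannot be told apart.

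**Figure D2:**
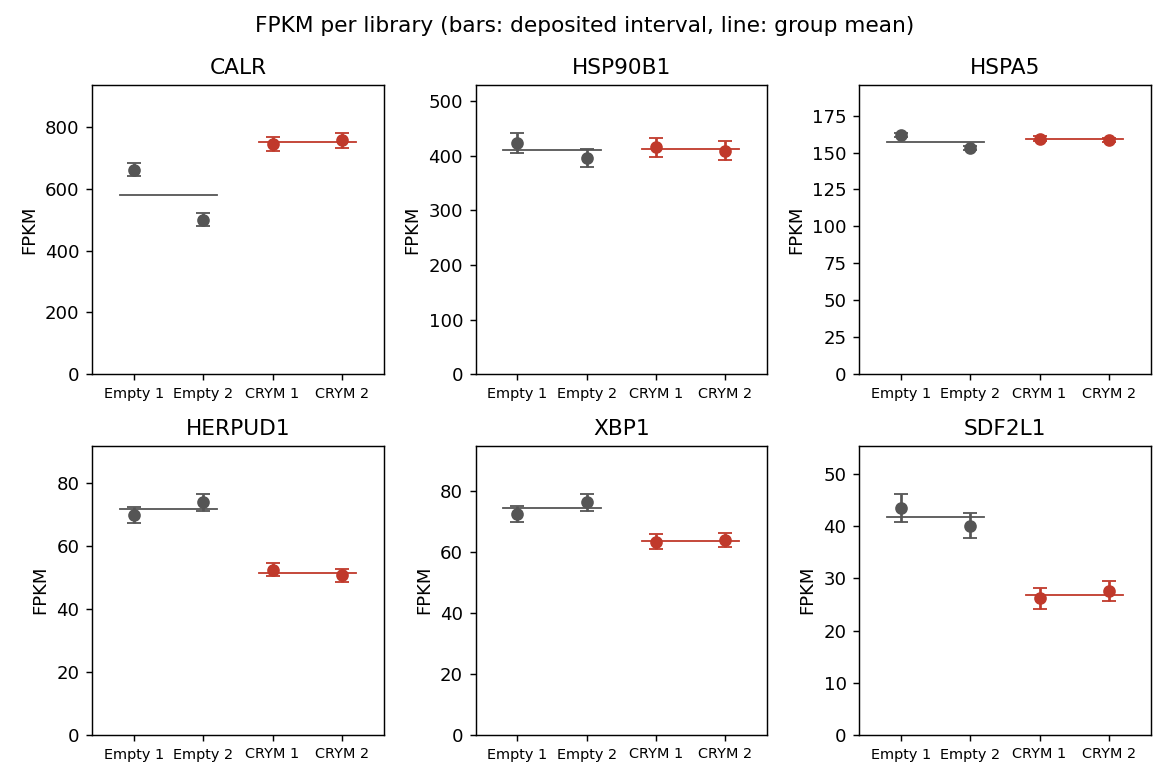
FPKM of each gene (vertical axis, from 0) in the 4 libraries, with the interval deposited for each value as a bar and the group mean as a line. In HERPUD1, XBP1 and SDF2L1 both CRYM libraries lie below both empty vector libraries, in CALR both lie above, and in HSP90B1 and HSPA5 the groups overlap.

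HSPA5 (chromosome 9, 127997132 to 128003609, hg19) had 161.7 and 153.1 FPKM with empty vector and 159.4 and 158.7 with CRYM. Both CRYM libraries lay between the empty vector libraries. The means were 157.4 ± 6.05 and 159.1 ± 0.544 FPKM (SD, n = 2 each), a log2 difference of 0.02 with a 95% interval of -0.10 to 0.13 (limma adjusted p = 0.783). Read as 2 SD of counting error above and below the value, the deposited intervals of HSPA5 imply 39477 to 51847 fragments per library. For HSPA5 these followed depth and FPKM, at 1.07, 0.816 and 1.04 of empty vector library 1 where depth times FPKM predicts 1.09, 0.831 and 1.05. The same reading gives 2250 fragments for HSP90B1 and 4001 for CALR in empty vector library 1, although their FPKM is higher, so it does not rank the genes by reads.

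HSP90B1 (chromosome 12, 104323885 to 104347423) had 423.7 and 396.2 FPKM with empty vector and 415.8 and 409.1 with CRYM, so that the groups overlapped again. The means were 410.0 ± 19.5 and 412.4 ± 4.79 FPKM (SD, n = 2 each). The log2 difference was 0.01, with a 95% interval of -0.13 to 0.15 (limma adjusted p = 0.898). The locus the files assign here runs 5.42 kb past the span given for the gene and overlaps 2 unnamed loci listed at 0 in all 4 libraries, and the part of any neighbouring transcript in its value was not tested. The ratio of HSP90B1 to HSPA5 changed little from library to library, at 2.62 and 2.59 with empty vector and 2.61 and 2.58 with CRYM. Among the 800 named protein-coding loci, HSPA5 was the nearest to HSP90B1 in pattern over the 4 libraries, with a root mean square distance of 0.00939 between their centred log2 values. FKBPL followed at 0.0114. Both chaperones were nearly flat over the libraries, so this closeness says little.

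CALR (chromosome 19, 13049392 to 13055303) was the most abundant of the 6, with 662.7 and 499.5 FPKM under empty vector and 745.5 and 756.8 under CRYM. Both CRYM libraries lay above both empty vector libraries. The means were 581.1 ± 115.4 and 751.1 ± 8.06 FPKM (SD, n = 2 each), a 1.29-fold higher mean, and the log2 difference of 0.38 had a 95% interval of -0.13 to 0.90 (limma adjusted p = 0.182). The coefficient of variation between the empty vector libraries was 19.9% for CALR and 3.55% to 5.77% for the other 5 genes. Empty vector library 2 stood apart: without it the log2 difference was 0.18 and without empty vector library 1 it was 0.59 (limma adjusted p = 0.0890 and 0.0713). Its deposited interval there, 478.6 to 520.3 FPKM, lay below those of the other 3 libraries, although that library was the deepest. The size of any CALR difference therefore rests on which empty vector library it is measured against. The antisense locus CTC-425F1.4 inside CALR was listed at 0 in all 4 libraries.

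SDF2L1 (chromosome 22, 21996550 to 21998587) was the least abundant of the 6 and had the largest difference among the called genes. It had 43.5 and 40.1 FPKM with empty vector and 26.2 and 27.6 with CRYM. The lowest empty vector value was well above the highest CRYM value, and the deposited intervals, 40.9 to 46.2 and 37.7 to 42.5 against 24.2 to 28.2 and 25.7 to 29.5 FPKM, did not overlap between groups. The means were 41.8 ± 2.41 and 26.9 ± 1.02 FPKM (SD, n = 2 each), a log2 difference of -0.62 with a 95% interval of -0.81 to -0.43 (limma adjusted p = 0.0150). Of all tested loci, 6.87% had a lower log2 difference. The implied fragments were 1059, 1132, 696 and 854 in the order empty vector 1 and 2, CRYM 1 and 2, which at equal depth gives 0.795 of the empty vector level where the FPKM ratio is 0.643. In the CRYM libraries they were 0.657 and 0.806 of empty vector library 1, where depth times FPKM predicts 0.506 and 0.679, so they did not follow depth and do not settle the size of the difference in reads.

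HERPUD1 (chromosome 16, 56965960 to 56977798) had 69.7 and 73.8 FPKM with empty vector and 52.4 and 50.6 with CRYM. The groups and their deposited intervals did not overlap. The means were 71.8 ± 2.89 and 51.5 ± 1.28 FPKM (SD, n = 2 each), a log2 difference of -0.47 with a 95% interval of -0.61 to -0.33 (limma adjusted p = 0.0140). An unnamed locus of 1449 bp inside HERPUD1 (chromosome 16, 56974190 to 56975638) also fell, from 5.30 and 5.59 to 3.54 and 3.57 FPKM (limma adjusted p = 0.0158). It lies within the gene, so it is not a separate source of evidence. The implied fragments of HERPUD1 were 2997, 2972, 2560 and 2732 in that order of libraries. From the first to the second empty vector library they hardly moved where depth and FPKM predict 1.22-fold more, so the ratio of 1.00 between groups at equal depth does not show whether reads fell.

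XBP1 (chromosome 22, 29190543 to 29196585) had 72.6 and 76.4 FPKM with empty vector and 63.4 and 63.9 with CRYM. The groups did not overlap, and the step between them was small. The deposited intervals were 70.0 to 75.3 and 73.6 to 79.1 FPKM with empty vector and 60.97 to 65.79 and 61.52 to 66.24 with CRYM, also apart. The means were 74.5 ± 2.64 and 63.6 ± 0.353 FPKM (SD, n = 2 each), a log2 difference of -0.22 with a 95% interval of -0.34 to -0.11 (limma adjusted p = 0.0314). This call was lost with quantile normalization, without the filter on low FPKM and on rescaling to the same total over loci of at least 300 bp (limma adjusted p = 0.0891, 0.0688 and 0.195). The implied fragments, 3027, 3083, 2765 and 2933, did not follow depth either, and their ratio at equal depth was 1.06 where the FPKM ratio is 0.854, in the other direction. Of all tested loci, 24.0% had a lower log2 difference. The processed pseudogene XBP1P1 (chromosome 5, 112220791 to 112221442) was at 0.255 to 0.474 FPKM.

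The XBP1 value adds up the unspliced and the spliced mRNA, and the splice is the step by which IRE1 acts. The GENCODE v29 transcripts XBP1-201 and XBP1-207 differ inside by the 26 bases removed in that splice. They are shown, in capitals with 25 bases on each side, because a value per gene cannot show whether they are present.
XBP1-201, bases 542 to 617: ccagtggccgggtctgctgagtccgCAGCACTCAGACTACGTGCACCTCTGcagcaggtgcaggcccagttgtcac
The stretch can be placed at 7 positions that give the same spliced sequence, and the one drawn is that in which each cut follows a G and precedes CAGC. The deposited tables give 1 value per locus and no transcript, so the spliced share was not analysed here.

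**Figure D3:**
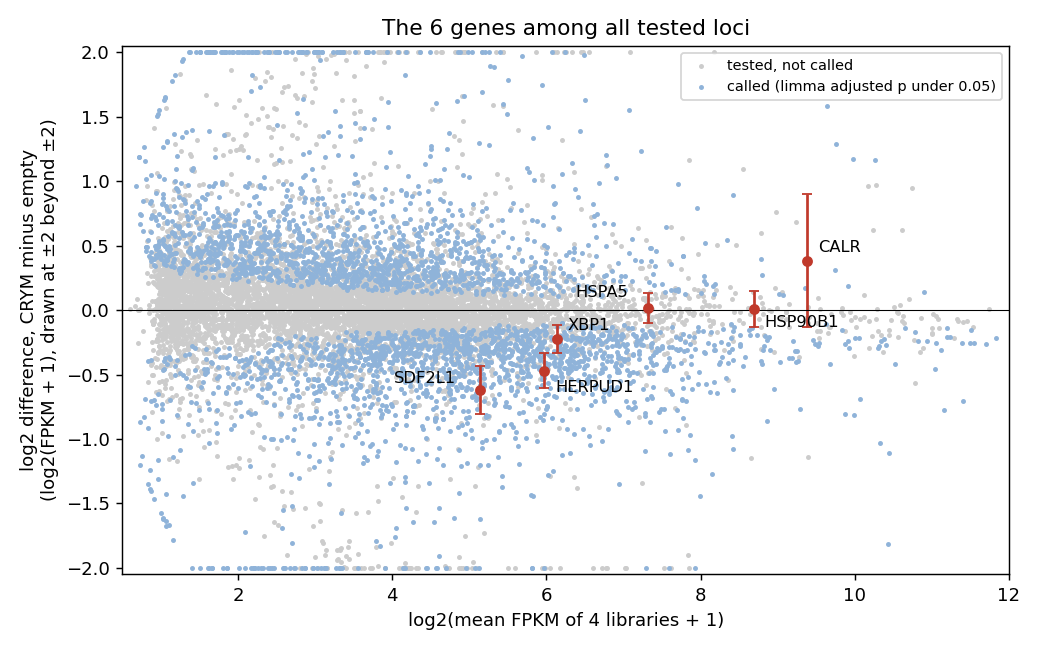
Log2 difference between CRYM and empty vector (vertical axis) against mean level (horizontal axis) for the 10091 tested loci, with called loci in blue and the 6 genes in red with their 95% intervals. SDF2L1, HERPUD1 and XBP1 lie below 0 with intervals that exclude 0, among many called loci of like size, and the interval of CALR is the widest of the 6.

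By level, CALR stood first with empty vector, followed by HSP90B1, HSPA5, XBP1, HERPUD1 and SDF2L1. XBP1 and HERPUD1 were close there: over the libraries 69.7 and 73.8 FPKM of HERPUD1 overlap 72.6 and 76.4 of XBP1, while within each library HERPUD1 was the lower. The values of the other neighbouring pairs did not overlap. With CRYM the order was the same, and XBP1 and HERPUD1 did not overlap. By mean FPKM the 6 genes ranked 123 (CALR), 174 (HSP90B1), 465 (HSPA5), 1145 (XBP1), 1279 (HERPUD1) and 2230 (SDF2L1) among tested loci.

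Ratios within a library stay the same when all its values are multiplied by a common factor. Quantile normalization is not such a scaling and can change them. SDF2L1 was at 0.269 and 0.262 of HSPA5 with empty vector and at 0.164 and 0.174 with CRYM, a change to 0.636 of the starting ratio. HERPUD1 was at 0.431 and 0.482 of HSPA5 and then at 0.329 and 0.319, a change to 0.709. XBP1 was at 0.449 and 0.499 and then at 0.398 and 0.403, a change to 0.844. In these 3 ratios the groups did not overlap, as they did not for 72.2% of all tested loci taken singly. The share over ratios of other loci was not computed. HSPA5 hardly changed, so the 3 ratios mostly repeat the FPKM ratios of CRYM over empty vector, 0.643, 0.718 and 0.854. The CALR ratio to HSPA5 was 4.10 and 3.26 and then 4.68 and 4.77, also apart, with the spread of the empty vector libraries as above. The ratio of HERPUD1 to XBP1 was 0.960 and 0.967 with empty vector and 0.827 and 0.792 with CRYM, without overlap. SDF2L1 against HERPUD1 overlapped between groups, at 0.625 and 0.544 with empty vector and 0.499 and 0.545 with CRYM. The ratios are given as values, and no difference between them was tested.

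**Figure D4:**
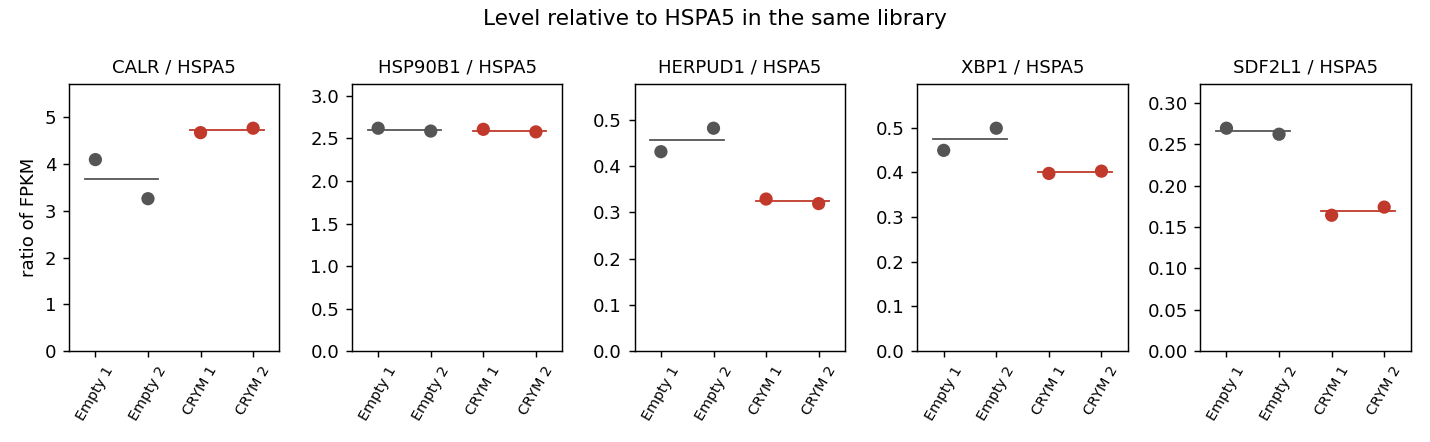
FPKM of 5 genes divided by that of HSPA5 in the same library (vertical axis, from 0), with group means as lines. The HSP90B1 ratio lies between 2.58 and 2.62, while the SDF2L1, HERPUD1 and XBP1 ratios are lower in both CRYM libraries and the CALR ratio is higher.

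A rescaling changed the sign for HSPA5, HSP90B1 and CALR by moving all loci together. When each library was rescaled to the same total over all its loci, which loci under 300 bp dominate, the median log2 difference over tested loci became -0.52 and 64.9% of loci were called. The differences then were -0.59 for HSPA5 and HSP90B1 (limma adjusted p = 0.00332 and 0.00324) and -0.22 for CALR (0.241), with -1.21 for SDF2L1, -1.07 for HERPUD1 and -0.82 for XBP1. Relative to that median, HSPA5 and HSP90B1 lay close to the middle of the tested loci, CALR above it and SDF2L1, HERPUD1 and XBP1 below it, as in the reported setting. A common factor per library shifts all loci almost alike, so these places could hardly change and are no further check. With quantile normalization, under which 27.5% of loci were called, HSPA5 was called higher at 0.18 (limma adjusted p = 0.0466).

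**Figure D5:**
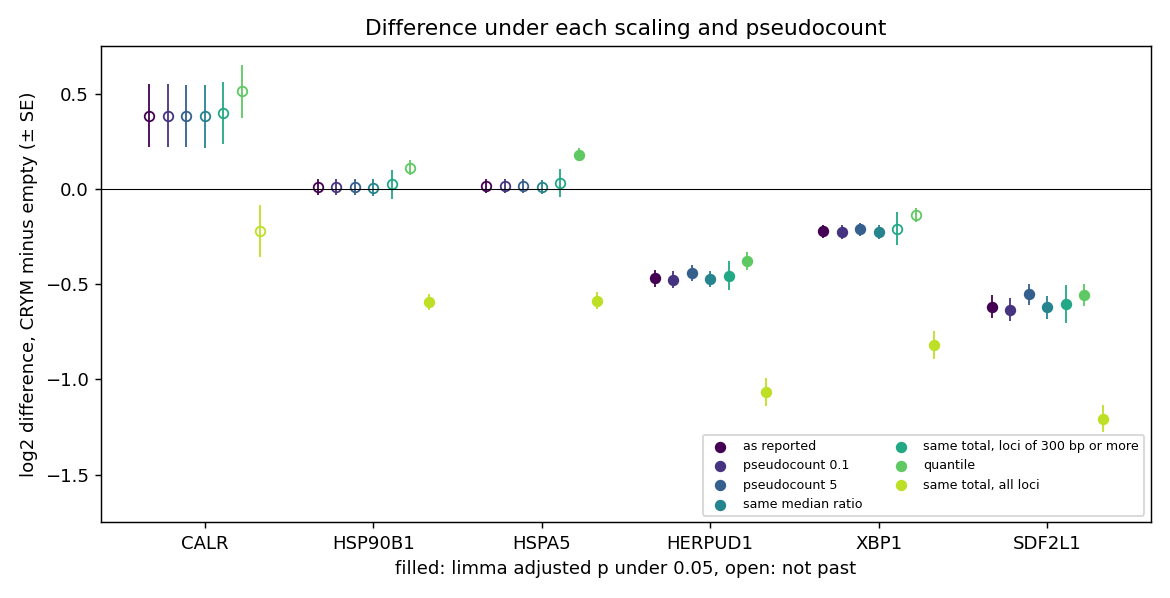
Log2 difference with its standard error (vertical axis) for each gene under the reported setting, 2 other pseudocounts and 4 other scalings, filled where the limma adjusted p is under 0.05. SDF2L1, HERPUD1 and XBP1 are below 0 in each, and rescaling to the same total over all loci moves HSPA5, HSP90B1 and CALR from above to below 0.

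Other genes of ER folding and quality control were read from 5 lists of 144 genes beside the 6, of which 12 have a name in the joined files and 11 were tested. Of these 11, 1 rose, 4 fell and 6 did not pass, with a median log2 difference of -0.19. Over all tested loci 33.3% were called and 17.7% called lower, with a median of 0.01. All 11 are named protein-coding loci, of which 40.8% were called and 23.4% called lower, with a median of -0.02. In the separate fit of loci that reached FPKM 5 in every library, 1 of the 11 was called higher and 5 lower. There 1668 of 6371 loci were called lower. With so few genes tested the lists say little of the pathway as a whole. Among chaperone partners, MANF, a secreted ER protein that binds HSPA5, had 231.4 and 205.2 FPKM with empty vector and 160.1 and 167.9 with CRYM, a log2 difference of -0.41 (SE 0.08, limma adjusted p = 0.0412). DNAJB9, a J-domain partner of HSPA5 and a known target of XBP1, had 9.86 and 10.9 and then 10.98 and 10.51 FPKM (limma adjusted p = 0.627). Of the foldases, ERP29 was the gene that rose, from 69.6 and 68.8 to 82.8 and 79.1 FPKM (limma adjusted p = 0.0291). ERP44, which retains proteins in the early secretory pathway, had 10.5 FPKM in both empty vector libraries and 10.26 and 9.93 with CRYM, without a call.

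Degradation factors held the largest fall among these genes. FAM8A1, a partner of the ubiquitin ligase complex of the ER membrane, went from 27.66 and 27.95 to 13.6 and 13.3 FPKM, a log2 difference of -0.99 (SE 0.03, limma adjusted p = 0.00437). UBE2J1, a membrane-anchored ubiquitin-conjugating enzyme of that pathway, fell from 18.7 and 19.2 to 14.1 and 14.5 FPKM (limma adjusted p = 0.0133). RNF5, a ubiquitin ligase, had 35.7 and 32.7 and then 38.1 and 36.1 FPKM, and it is uncertain because copies on haplotype sequences can share its reads. These 3 are the tested ones of 29 listed degradation genes beside HERPUD1. Of the 3, 2 were called lower, against 17.7% of all tested loci and 23.4% of named protein-coding loci. The same 2 were called lower in the fit of loci that reached FPKM 5 in every library, against 1668 of 6371 loci. The list was written with results of these data known, and so few genes do not speak for it as a whole.

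The factors of the stress response beside XBP1 were PPP1R15B and DDIT3. PPP1R15B, a subunit that directs the removal of the phosphate from eIF2-alpha, fell from 24.9 and 26.6 to 21.1 and 20.8 FPKM (limma adjusted p = 0.0323). DDIT3 (also CHOP), a transcription factor induced by ER stress, had 74.6 and 88.1 FPKM with empty vector and 65.4 and 67.3 with CRYM, apart but not past the test (limma adjusted p = 0.125). CREB3 was listed at 0 in all 4 libraries. Of protein entry into the ER, SEC61B, a subunit of the translocation channel, had 197.5 and 184.4 and then 167.9 and 166.6 FPKM (limma adjusted p = 0.0597), and MAGT1, a subunit of the glycosylation complex, had 26.9 to 27.7 FPKM without a call. The call of MANF was lost with quantile normalization, and those of MANF, PPP1R15B and ERP29 without the filter on low FPKM (limma adjusted p = 0.0865, 0.0702 and 0.0645). On rescaling to the same total over loci of at least 300 bp FAM8A1 alone of the 11 was called. On rescaling to the same total over all loci each of the 11 was called lower, ERP29 included.

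For each of the 6 genes, the 2 nearest in pattern were taken from the 800 named protein-coding loci by the root mean square distance of centred log2 values over the 4 libraries. They were MRPL54 and RHOG for HSPA5 (0.0103 and 0.0143), NDN and ZBTB2 for XBP1 (0.0162 and 0.0180), and DSCC1 and H2AFX for SDF2L1 (0.0266 and 0.0270). HERPUD1 had MAGOH and FOXO6 (0.0294 and 0.0359), CALR had SLC2A12 and SPINK9 (0.0548 and 0.0761), and HSP90B1 had FKBPL (0.0114) after HSPA5. With 4 values per gene, many loci come near by number alone. SLC2A12 shared the low value of CALR in empty vector library 2, with 11.2 and 7.30 and then 12.2 and 11.9 FPKM.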

How the data were processed

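A stranded mRNA kit gave the 4 LNCaP libraries, which were read from 1 end over 50 bp, per the labels' protocols. The submitters' processing notes name Cuffdiff, Cufflinks 2.2.1, TopHat2 2.1.1, Bowtie2 2.2.9, GRCh37 and hg19 but no roles, and no source used here says whether strand entered the values. The authors deposited FPKM with a lower and an upper bound for each locus of each library, per the file headers.

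Libraries were joined by identical position (52318 loci, 27 identifiers with several loci summed). A gene was taken by its name on a main chromosome, else by the locus with the highest overlap over union, at least 0.4, which was 0.765 to 0.980 for the 6 genes. All 6 had the same position in each file. FPKM are no counts, so limma 3.58.1 (R 4.3.3) was run on log2(FPKM + 1), with 2 groups, a trend in the variance prior, two-sided tests and p-values adjusted by Benjamini and Hochberg (threshold 0.05) over the 10091 loci that had status OK throughout and reached FPKM 1 in 2 or more libraries. The fit was run on simulated data as a check of the code, and no recovery rate from that run is used here. Relative depth came from loci of 60 to 62 bp, where values above 0 were whole multiples (within 0.02) of 1 step per width. What the deposited intervals cover is not stated, and at 5 of the 6 genes the fragments they imply did not follow depth.

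The genes, lists and tests were chosen with earlier results of these data known. The text names the 6 genes, CRYM, all tested list genes, and the 2 nearest genes in pattern; a part of that rule on protein ends was not used here. An item on a marker list is not reported here. Alternatives covered the pseudocount, filter, status, scaling, variance prior, replicate block and each library left out. Python 3.11.15 was used.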

Additional observations from a re-analysis of the deposited data

How the results depend on the processing

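Leaving out each library in turn left 1 residual degree of freedom, and limma then called 0 to 0 loci and 0 to 0 list genes (3627 to 3815 loci had an unadjusted p under 0.05). The log2 differences ranged from -0.68 to -0.56 for SDF2L1, -0.51 to -0.43 for HERPUD1, -0.26 to -0.19 for XBP1, 0.18 to 0.59 for CALR, -0.0234 to 0.0545 for HSPA5 and -0.0389 to 0.0578 for HSP90B1, where the signs of the last 2 turned.

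The replicate block also gave 0 loci and 0 list genes (3819 at an unadjusted p under 0.05), with -0.62 for SDF2L1, -0.47 for HERPUD1 and -0.22 for XBP1 (limma adjusted p = 0.0771, 0.0763 and 0.0910). The deviations from the group means of libraries with the same number had a correlation of 0.0361, and the labels do not say that the numbers pair. The filter on low FPKM, when dropped, gave 1870 loci and 2 list genes in place of 3365 and 5, with XBP1 at -0.22 and no longer called. Rescaling to the same total over all loci gave 6553 loci (297 higher, 6256 lower) and 11 list genes, with HSPA5 at -0.59, HSP90B1 at -0.59 and CALR at -0.22. Rescaling over loci of at least 300 bp, chosen after seeing the data, gave 1121 loci and 1 list gene, with XBP1 at -0.21 (not called). SDF2L1 and HERPUD1 stayed called under it only at the edge of the threshold (limma adjusted p = 0.0498 and 0.0496). Quantile normalization gave XBP1 at -0.14 (not called) and HSPA5 at 0.18 (called). The causes were not tested. In the other settings run (pseudocounts of 0.1 and 5, FPKM of at least 5, any status, the median ratio, no variance trend, identical positions) each of the 6 genes kept its direction and its side of the threshold.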

Other observations

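Loci next to the 6 genes had values of their own. An unnamed locus that ends within 1 kb of HSPA5 (hg19 chromosome 9, 127962821 to 127996437) rose from 14.3 and 13.8 to 17.2 and 16.5 FPKM (limma adjusted p = 0.0340), while HSPA5 beside it had a log2 difference of 0.02. On the other side, the antisense locus RP11-65N13.8 (chromosome 9, 128003942 to 128019297) was listed at 0.0301 and 0.0533 FPKM with empty vector and at 0.252 and 0.256 with CRYM, below the level for testing. Its deposited intervals reach 0 in both empty vector libraries and overlap between groups. An unnamed locus that starts next to XBP1 at position 29196671 of chromosome 22 had 5.20 and 6.25 FPKM with empty vector and 4.20 and 4.92 with CRYM, and its far end differs between files, so it was not joined.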
